A study of Mus musculus with 6 samples.

Results

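The cytochrome P450 genes described here are 7 members of the family that were proposed as enzymes of fat stroma, together with Por, which encodes the electron donor of those in the endoplasmic reticulum. They were taken by name from the count table: Cyp1b1, Cyp2e1, Cyp4b1, Cyp7b1, Cyp27a1, Cyp4v3, Cyp2d22 and Por, 8 of 53801 genes. Stromal vascular fraction cells, the cells of fat tissue other than its mature adipocytes, came from the inguinal fat pad of Ythdf1 knockout or wild type mice, as the labels name them. All cultures had 4 days of adipogenic induction, and 3 libraries per genotype, called biological replicates by the series, were made from RNA depleted of ribosomal RNA. The Ythdf1 protein recognises the m6A mark on messenger RNA in the cytoplasm. The sources used here do not give the strain, age or knockout allele of the animals.

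Cytochrome P450 enzymes carry a haem group that inserts 1 atom of oxygen into a substrate. Those of the endoplasmic reticulum receive electrons from the reductase that Por encodes, and those of mitochondria, such as Cyp27a1, receive them from the ferredoxin Fdx1 and its reductase Fdxr. In fat and its stroma these enzymes act on fatty acids, sterols, retinoids, steroid hormones and foreign compounds.

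The libraries held between 16619605 and 20089138 counts, so that 3 counts corresponded to 0.146 to 0.185 CPM. CPM scales the counts of a gene to the size of its library, and floors of this kind cover counting error only. The targeted gene Ythdf1 was at 43.8 ± 1.15 CPM in knockout libraries and 61.8 ± 1.34 CPM in those of wild type (SD, n = 3 each), so most of its signal remained and it checks the labels only in part. The 12 markers of mature adipocytes all rose, and their summed level was 17400 to 23600 CPM in knockout libraries and 3840 to 5980 CPM in wild-type libraries. Of 12 progenitor and fibroblast markers 8 fell and 0 rose, with sums of 4300 to 4450 CPM in knockout, against 5360 to 5500 CPM in wild type. Of 10 markers of myofibroblasts and mural cells 7 fell and 2 rose, with sums of 506 to 625 CPM in knockout, against 1160 to 1410 CPM in wild type. Macrophage markers rose for 8 of 10, with sums of 293, 294 and 791 CPM in knockout replicates 1 to 3, against 91.7 to 166 CPM in wild type. In bulk RNA, more cells of a type cannot be told apart from more RNA per cell.

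Of the 8 genes, 4 rose in knockout, 1 fell and 3 did not pass the test. The test was the quasi-likelihood test of edgeR, with p adjusted by Benjamini-Hochberg over all 14816 genes tested. At the threshold of 0.05, 44.3% of these passed, 22.6% higher and 21.7% lower in knockout. The members' share of calls, 62.5%, is a count over 8 genes chosen by name and is not read as a property of the group. Their median log2 fold change was 0.34, against 0.01 over all genes tested. All 8 passed the filter on low counts. In the 5 that were called, the CPM of the genotypes did not overlap, which was so for 55.2% of all genes tested. The members did not share 1 pattern: Cyp1b1 fell, Cyp2e1 and Por rose, and Cyp4v3 and Cyp2d22 overlapped between genotypes.

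**Figure D1:**
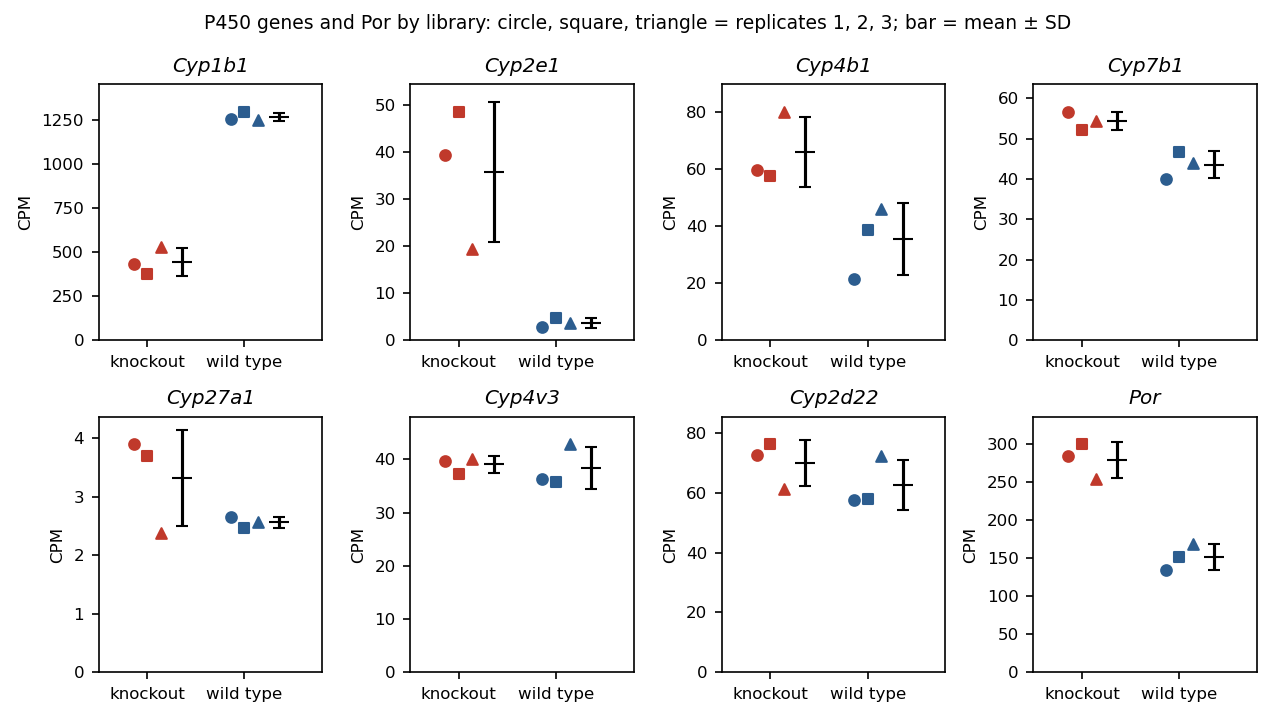
CPM of each of the 8 genes (vertical axes, linear from 0) in the 3 knockout and 3 wild-type libraries, with the mean and SD of each genotype beside the points. Cyp1b1 was lower in each knockout library than in any wild-type library, Cyp2e1, Cyp4b1, Cyp7b1 and Por were higher, and Cyp27a1, Cyp4v3 and Cyp2d22 overlapped.

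Promoter sequences are shown for Cyp1b1, Cyp2e1 and Por, the members with the smallest p-values. They run from 250 bases before to 50 bases after the start of the RefSeq gene in GRCm38.p6 and are written 5′ to 3′ on the gene's strand. The Por window lies inside the gene interval given below, which begins at 135670033, and does not cover that start. Capitals mark GCGTG or its reverse complement CACGC, the core of the site bound by the aryl hydrocarbon receptor Ahr with Arnt, for which Cyp1b1 is a known target gene.
Cyp1b1, chr17:79715012-79715311, minus strand: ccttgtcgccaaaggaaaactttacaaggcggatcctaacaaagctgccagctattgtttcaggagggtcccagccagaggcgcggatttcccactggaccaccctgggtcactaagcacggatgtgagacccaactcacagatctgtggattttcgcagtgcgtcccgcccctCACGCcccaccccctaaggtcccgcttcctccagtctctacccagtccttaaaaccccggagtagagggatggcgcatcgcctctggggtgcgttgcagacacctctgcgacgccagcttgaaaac
Cyp2e1, chr7:140763569-140763868, plus strand: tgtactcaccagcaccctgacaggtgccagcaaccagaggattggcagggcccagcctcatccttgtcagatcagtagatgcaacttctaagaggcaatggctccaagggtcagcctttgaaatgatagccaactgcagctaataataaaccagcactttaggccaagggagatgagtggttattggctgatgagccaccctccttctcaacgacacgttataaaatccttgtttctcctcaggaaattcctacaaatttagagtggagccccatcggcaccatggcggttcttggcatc
Por, chr5:135688895-135689194, plus strand: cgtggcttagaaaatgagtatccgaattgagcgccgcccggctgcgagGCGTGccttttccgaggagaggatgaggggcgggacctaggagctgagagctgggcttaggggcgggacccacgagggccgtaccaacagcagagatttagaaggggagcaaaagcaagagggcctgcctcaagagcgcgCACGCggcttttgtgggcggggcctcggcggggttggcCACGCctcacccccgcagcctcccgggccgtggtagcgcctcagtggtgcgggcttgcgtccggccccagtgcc
The Cyp1b1 window held the 5-base motif once, the Por window 3 times and the Cyp2e1 window 0 times. Among the 32851 promoter windows of the table, 32.4% held it at least once and 3.91% at least 3 times, searched on both strands. Windows were found for 6 of the 8 members; that of Cyp4v3 held it once, and those of Cyp4b1 and Cyp27a1 0 times. These are matches of letters and say nothing of binding.

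Cyp1b1 (ENSMUSG00000024087, minus strand of chromosome 17, 79701537 to 79715061 in GRCm38) oxidises oestrogens, retinol and aromatic hydrocarbons. Its level was 432, 374 and 529 CPM in knockout replicates 1 to 3, against 1256, 1295 and 1252 CPM in wild-type replicates 1 to 3. The wild-type libraries lay close together, while the knockout libraries spread more widely and stayed far below them. Cyp1b1 fell to 445 ± 78.7 CPM in knockout, against 1268 ± 24.1 CPM in wild type (SD, n = 3 each). The log2 fold change was -1.51 ± 0.13 (SE), a fold of 0.351, with an edgeR adjusted p of 4.31e-06. Knockout replicate 3 held the highest of the knockout values. It also had the highest knockout sums of macrophage, progenitor and myofibroblast markers. The myofibroblast and mural sums, 543, 506 and 625 CPM in knockout replicates 1 to 3, had the order of Cyp1b1. In wild-type replicates 1 to 3 these sums, 1410, 1330 and 1160 CPM, did not. Without knockout replicate 3 the log2 fold change was -1.65. Progenitor and myofibroblast markers were lower in the same libraries (sums above), and their part in the fall of Cyp1b1 was not tested.

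Cyp2e1 (ENSMUSG00000025479, plus strand of chromosome 7, 140763739 to 140774987) oxidises ethanol, acetone and other small molecules. It was at 39.3, 48.5 and 19.3 CPM in knockout replicates 1 to 3, against 2.71, 4.76 and 3.54 CPM in wild-type replicates 1 to 3. Behind these stood 714, 853 and 397 raw counts in knockout libraries and 48, 77 and 62 raw counts in wild-type libraries. Even the lowest knockout library, replicate 3, lay well above the wild-type libraries. Cyp2e1 rose to 35.7 ± 14.9 CPM in knockout, against 3.67 ± 1.03 CPM in wild type. The difference was 9.73-fold, or 3.28 ± 0.40 (SE) on the log2 scale with a 95% interval from 2.34 to 4.22 and an edgeR adjusted p of 0.000585. Without knockout replicate 3 the log2 fold change was 3.59. The knockout libraries had the same order in the summed adipocyte markers, at 19300, 23600 and 17400 CPM in replicates 1 to 3. The wild-type libraries did not, with sums of 3840, 5580 and 5980 CPM in replicates 1 to 3 and the highest Cyp2e1 in replicate 2. The part of adipocyte content in the rise of Cyp2e1 was not tested.

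Cyp4b1 (ENSMUSG00000028713, minus strand of chromosome 4, 115624725 to 115647723) hydroxylates fatty acids and activates some toxins. Its CPM were 59.8, 57.7 and 80.0 in the knockout libraries, against 21.4, 38.4 and 46.0 in the wild-type libraries. The genotypes did not overlap, but the wild-type libraries differed among themselves by more than the nearest knockout and wild-type libraries did. Cyp4b1 rose by 0.90 ± 0.28 (SE) on the log2 scale, with an edgeR adjusted p of 0.035. The call ended without knockout replicate 2 (adjusted p = 0.122), knockout replicate 3 (0.116) or wild-type replicate 2 (0.0673), and without the low-count filter (0.181), while the log2 fold change stayed between 0.64 and 1.14. Its highest value was in knockout replicate 3, which had the lowest knockout sum of adipocyte markers (17400 CPM) and the highest sum of macrophage markers (791 CPM). The wild-type libraries had other orders. In their replicates 1 to 3 the adipocyte sums, 3840, 5580 and 5980 CPM, rose with Cyp4b1. The macrophage sums, 166, 111 and 91.7 CPM, fell as Cyp4b1 rose.

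Cyp7b1 (ENSMUSG00000039519, minus strand of chromosome 3, 18071950 to 18243338) encodes a hydroxylase of oxysterols and of some steroids. It was measured at 56.6, 52.2 and 54.3 CPM in knockout libraries, against 39.9, 46.7 and 44.0 CPM in wild-type libraries. The difference was small but the replicates were tight, and no library crossed over. Cyp7b1 rose by 0.32 ± 0.09 (SE) on the log2 scale, with an edgeR adjusted p of 0.0123. Without knockout replicate 1 or wild-type replicate 1 it no longer passed (adjusted p = 0.0587 and 0.0609), at log2 fold changes of 0.29 and 0.26.

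Cyp27a1 (ENSMUSG00000026170, plus strand of chromosome 1, 74713574 to 74737892) encodes the mitochondrial sterol hydroxylase that also starts the alternative route to bile acids. It was low throughout, at 3.90, 3.69 and 2.39 CPM in knockout libraries, against 2.66, 2.47 and 2.57 CPM in wild-type libraries, from raw counts of 40 to 71. Knockout replicates 1 and 2 lay above the wild-type libraries and knockout replicate 3 below them. The log2 fold change of 0.37 ± 0.26 (SE) did not pass (edgeR adjusted p = 0.276), with a 95% interval from -0.20 to 0.94.

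Cyp4v3 (ENSMUSG00000079057, minus strand of chromosome 8, 45304944 to 45333216) is the mouse counterpart of the human fatty acid hydroxylase gene CYP4V2. Its CPM were 39.7, 37.3 and 40.2 in knockout libraries, against 36.2, 35.8 and 42.9 in wild-type libraries, with the highest and the lowest value both in wild-type libraries. The log2 fold change was 0.03 ± 0.10 (SE; edgeR adjusted p = 0.842, 95% interval -0.18 to 0.24), and its sign turned under other settings. The gene shares 313 bases of exon on the same strand with Gm45753, which held 0 to 2 counts per library, so reads in that stretch may have been lost or assigned to either.

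Cyp2d22 (ENSMUSG00000061740, minus strand of chromosome 15, 82370527 to 82380260) belongs to the Cyp2d subfamily of drug-metabolising enzymes. It was at 72.5, 76.2 and 61.3 CPM in knockout libraries, against 57.6, 57.8 and 72.2 CPM in wild-type libraries. Replicate 3 was the lowest knockout library and the highest wild-type library, so that the genotypes overlapped. The log2 fold change of 0.16 ± 0.11 (SE) did not pass (edgeR adjusted p = 0.278, 95% interval -0.09 to 0.41). The other 17 Cyp2d genes and pseudogenes of the table together held 10 to 18 counts in knockout libraries and 25 to 30 in wild-type libraries, against 936 to 1341 for Cyp2d22. Reads shared with these close copies are uncertain, and how the counting treated them is not stated in the sources used here.

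Por (ENSMUSG00000005514, plus strand of chromosome 5, 135670033 to 135735326) encodes the reductase that passes electrons from NADPH to P450 enzymes of the endoplasmic reticulum and to haem oxygenase. Its level was 284, 300 and 253 CPM in knockout libraries, against 134, 152 and 168 CPM in wild-type libraries. No wild-type library reached the lowest knockout library. Por rose to 279 ± 23.6 CPM in knockout, against 151 ± 17.3 CPM in wild type. The rise was 0.88 ± 0.11 (SE) on the log2 scale, with an edgeR adjusted p of 5.82e-05. It passed without any 1 of the 6 libraries, at log2 fold changes between 0.80 and 0.96. Adipocyte and macrophage marker sums were higher in the same libraries, and their part in the rises of Cyp4b1, Cyp7b1 and Por was not tested.

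Levels of different genes were compared per kilobase of annotated exon. On this scale Cyp1b1 was the most abundant of the 7 P450 members in both genotypes, at 76.2 ± 13.5 CPM per kb in knockout, against 217 ± 4.12 CPM per kb in wild type. In knockout it was followed by Cyp4b1 (29.2 CPM per kb), Cyp7b1 (25.1), Cyp2d22 (17.9), Cyp2e1 (16.5), Cyp4v3 (10.3) and Cyp27a1 (1.53). In wild type the order of mean CPM per kb was Cyp7b1 (20.1), Cyp2d22 (16.0), Cyp4b1 (15.6), Cyp4v3 (10.1), Cyp2e1 (1.70) and Cyp27a1 (1.18). Library values overlapped between Cyp4b1 and Cyp7b1, between Cyp2d22 and Cyp2e1, and between Cyp2e1 and Cyp4v3 in knockout. In wild type they overlapped between Cyp7b1 and Cyp2d22, Cyp2d22 and Cyp4b1, and Cyp4b1 and Cyp4v3. The order below Cyp1b1 depended on the length used. Per kb of coding sequence, Cyp2d22 stood above Cyp4b1 and Cyp7b1 in knockout (46.6, 42.9 and 35.7 CPM per kb) and above Cyp7b1 in wild type (41.7 and 28.6 CPM per kb). Libraries of Cyp2d22 and Cyp7b1 did not overlap on that scale in either genotype. Those of Cyp2d22 and Cyp4b1 overlapped in knockout, and in knockout replicate 3 Cyp4b1 was the higher (52.2 against 40.8 CPM per kb). Cyp4v3 then also had a higher mean than Cyp2e1 in knockout and than Cyp4b1 in wild type, with overlapping libraries in both cases.

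The make-up of the P450 family as a whole was described over 102 genes, which are all protein-coding Cyp genes with the P450 enzymes Ptgis and Tbxas1. Summed over these, the level was 320 ± 1.95 CPM per kb in knockout and 401 ± 11.8 CPM per kb in wild type (SD, n = 3 each), with no overlap. Cyp1b1 made up 23.3%, 19.9% and 28.3% of that sum in knockout replicates 1 to 3, against 55.3%, 53.8% and 53.5% in wild-type replicates 1 to 3. With Cyp1b1 left out the sums ran the other way, at 243 ± 14.2 CPM per kb in knockout and 184 ± 8.79 CPM per kb in wild type, so the lower total in knockout rested on this 1 gene. Cyp2e1 made up 5.17% ± 2.15 of the family in knockout and 0.423% ± 0.106 in wild type, and with coding length 3.18% in knockout and 0.215% in wild type. Por stood at 0.217 ± 0.018 of the summed P450 level per kb in knockout and 0.0939 ± 0.00964 in wild type, and without Cyp1b1 in the sum at 0.284 ± 0.00839 in knockout, against 0.205 ± 0.0175 in wild type. The sums hold P450 genes of every kind, the mitochondrial Cyp27a1 among them, and were not limited to enzymes that Por serves. So the ratios are not ones of the reductase to its own partner enzymes. These sums and ratios are descriptions of transcripts and were not tested.

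**Figure D2:**
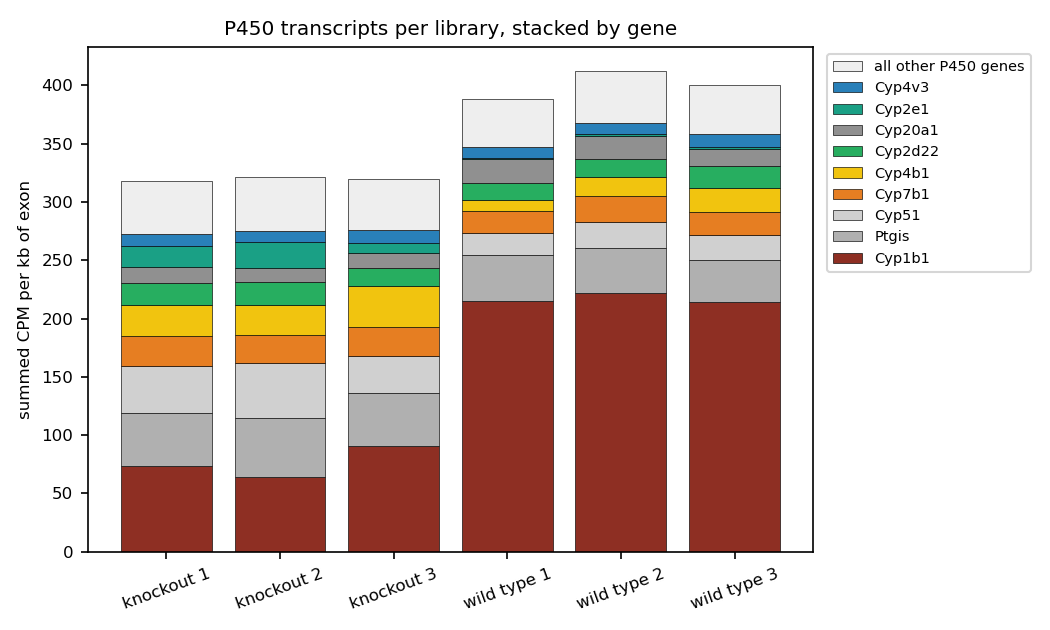
Summed CPM per kb of exon of the 102 P450 genes (vertical axis) in each knockout and wild-type library, stacked by gene. The dark red Cyp1b1 segment is 64.0 to 90.7 CPM per kb in knockout and 214 to 222 CPM per kb in wild type, and the rest of each bar is taller in knockout.

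Of the 95 P450 genes other than the members, 19 passed the filter on low counts, 57 had counts too low to test and 19 had no count in any library. Among the 19 tested, 4 were higher, 4 lower and 11 not called, with a median log2 fold change of -0.09. The share called is near the 44.3% over all genes tested, so the count is no result about the family. The rises were Cyp4f17 (34.1 ± 0.641 CPM in knockout and 16.9 ± 0.662 in wild type), Cyp51, the demethylase of cholesterol synthesis (175 ± 34.3 CPM in knockout, 94.0 ± 7.79 in wild type), Cyp4f13 (19.9 ± 1.72 CPM in knockout, 14.4 ± 1.40 in wild type) and the prostacyclin synthase gene Ptgis (121 ± 8.14 CPM in knockout, 97.0 ± 4.96 in wild type). Cyp20a1 fell to 29.0 ± 1.78 CPM in knockout, against 42.0 ± 6.46 CPM in wild type. The retinoic acid hydroxylase gene Cyp26b1 fell by 0.46 ± 0.16 (SE) on the log2 scale (edgeR adjusted p = 0.0347). Its call ended without knockout replicate 1 (0.144), knockout replicate 2 (0.0948), wild-type replicate 2 (0.0984) or wild-type replicate 3 (0.103).

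The remaining falls were P450 genes of liver and gut at low levels. Cyp2c55 had 0, 0 and 1 counts in knockout libraries, against 39, 31 and 25 counts in wild-type libraries (edgeR adjusted p = 2.87e-05). Cyp3a11 had 12, 11 and 9 counts in knockout, against 43, 47 and 25 in wild type (edgeR adjusted p = 0.00171). Markers of epithelium and gut lining moved the same way, 7 of 8 tested lower and 0 higher, with sums of 11.2 to 16.4 CPM in knockout, against 35.5 to 48.3 CPM in wild type. Most of the knockout sums came from Lgals4, the tested marker not called, at 10.7, 12.8 and 9.02 CPM in knockout replicates 1 to 3. The 7 that were lower had log2 fold changes from -5.62 (Epcam) to -2.80 (Krt20). Hepatocyte markers, a list that holds Cyp3a11 itself, were lower for 6 of 8 tested and higher for 0, with sums of 18.0 to 24.6 CPM in knockout, against 39.8 to 54.2 CPM in wild type. No marker of either list was at 0 in all libraries, and the part of such cells or of carried-over RNA in these 2 genes was not tested.

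**Figure D3:**
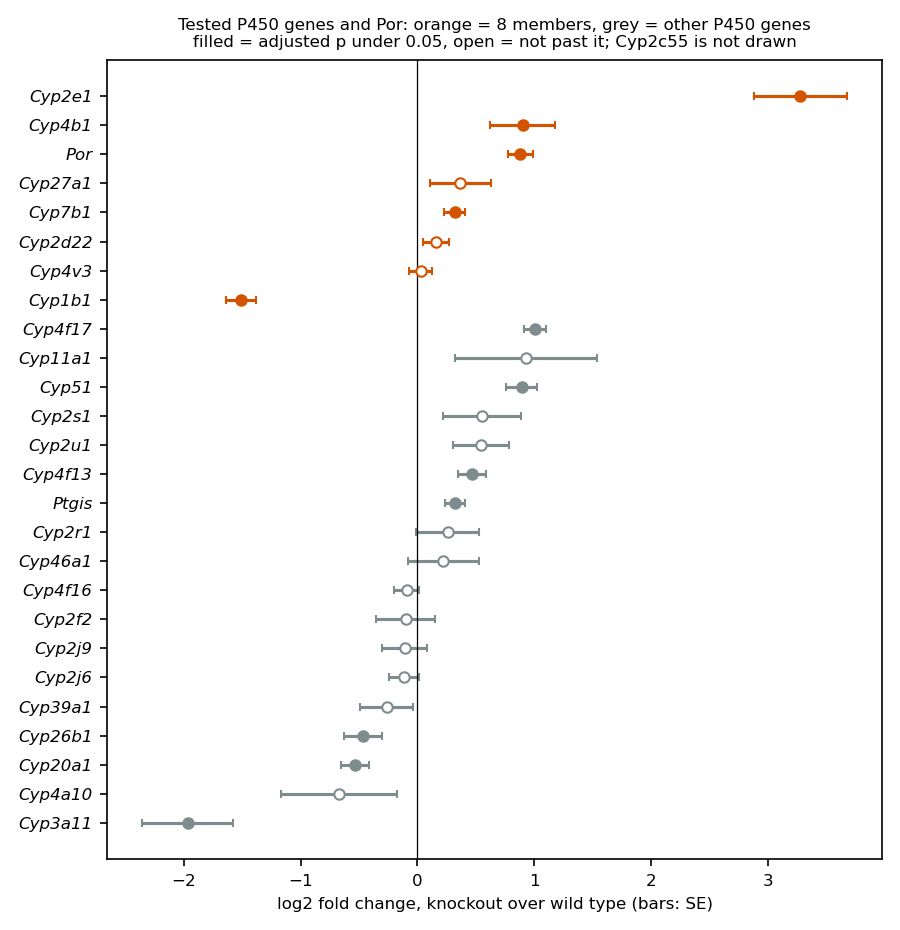
Log2 fold change, knockout over wild type, with its SE for the 8 members (orange) and 18 of the 19 other tested P450 genes (grey); filled points passed the adjusted threshold. Members run from Cyp1b1 at -1.51 to Cyp2e1 at 3.28, and Cyp2c55, with 1 count over the knockout libraries, is not drawn.

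Electron donors and membrane partners of P450 enzymes were higher in knockout for 7 of 9 tested genes, Por among them, and lower for 1. Over all genes tested, 22.6% were higher and 21.7% lower. The median log2 fold change of the list was 0.51 against 0.01 over all genes, and no set test was made. Fdx1, the ferredoxin that serves mitochondrial P450 enzymes, was at 43.2, 58.4 and 36.4 CPM in knockout libraries, against 12.3, 15.8 and 13.9 CPM in wild-type libraries. Its reductase gene Fdxr rose by 0.86 on the log2 scale, Cyb5b by 0.84 and Pgrmc2 by 0.51. So both donors of the mitochondrial system rose, while the mitochondrial member Cyp27a1 did not pass. Without wild-type replicate 2 the count of called genes in this list was 5 rather than 8.

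Haem synthesis and breakdown genes were higher for 9 of 12 tested and lower for 1, the coproporphyrinogen oxidase gene Cpox (log2 fold change -0.32). The median was 0.55. Beside this, 22.6% of all genes tested were higher and 21.7% lower, and the list was not tested as a set. Alas1, the enzyme of the first step of haem synthesis, was at 445, 476 and 399 CPM in knockout libraries, against 102, 124 and 139 CPM in wild-type libraries. The rise was 1.85 ± 0.12 (SE) on the log2 scale (edgeR adjusted p = 1.19e-06). Hmox1, which breaks haem down and takes its electrons from Por, rose by 1.24 on the log2 scale, and Uros, a later enzyme of haem synthesis, rose by 0.69. Fech, the last step of synthesis, did not pass, at 101 ± 3.80 CPM in knockout, against 94.6 ± 2.43 CPM in wild type.

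The Ahr list, which includes Cyp1b1, had 3 of 8 tested genes lower and 1 higher, with a median log2 fold change of -0.50. With 44.3% of all genes called, this share of calls is near the background and is not a result about the list. Ahr itself was at 12.2, 9.94 and 25.5 CPM in knockout libraries, against 33.1, 32.9 and 27.2 CPM in wild-type libraries. Knockout replicate 3 lay close to the wild-type libraries, and Ahr did not pass over all 6 libraries (log2 fold change -0.96 ± 0.33, edgeR adjusted p = 0.0545) but passed without that library (-1.49, adjusted p = 3.17e-06) and under 5 of the other settings tried. Nqo1, a quinone reductase gene, fell by 0.85 on the log2 scale. Ahrr, the repressor of Ahr, was near 1 CPM and fell by 1.32, a call that ended without knockout replicate 2 (adjusted p = 0.0756), knockout replicate 3 (0.0531), wild-type replicate 1 (0.089) or wild-type replicate 2 (0.0524). Tiparp, which is also induced through Ahr, went the other way, at 125 ± 3.22 CPM in knockout, against 55.1 ± 5.33 CPM in wild type. Cyp1a1 and Cyp1a2, the classical Ahr targets of liver, held at most 6 counts in any library.

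On the oxysterol and bile acid route, which includes Cyp7b1 and Cyp27a1, 3 of 9 tested genes were higher and 1 lower, with a median log2 fold change of 0.22. That share of calls also lay at the 44.3% of all genes, and nothing is read from it. The lipid carrier gene Scp2 was at 634 ± 93.0 CPM in knockout, against 235 ± 13.8 CPM in wild type, and Star rose by 1.06 on the log2 scale, at 2.74 ± 0.439 CPM in knockout, against 1.31 ± 0.261 CPM in wild type. Ch25h, which makes the oxysterol that Cyp7b1 hydroxylates, fell to 8.78 ± 3.09 CPM in knockout, against 16.9 ± 3.99 CPM in wild type (edgeR adjusted p = 0.0135). Without knockout replicate 1 the calls for Ch25h (adjusted p = 0.0517) and Cyp7b1 ended, and 2 genes of the list were called rather than 4. The bile acid genes Cyp7a1, Cyp8b1 and Akr1d1 held at most 3 counts in any library. Of 7 tested genes of oxysterol-sensing LXR receptors and their targets, 5 were higher and 0 lower (median 1.04). The shares over all genes tested were 22.6% higher and 21.7% lower, and no set test was made. Those higher were led by Srebf1, Lpcat3, Abcg1 and the receptor gene Nr1h3, with log2 fold changes of 1.58, 1.04, 2.05 and 1.96.

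Of 15 tested genes of epoxide hydrolysis and conjugation, 6 were higher, 0 lower and 9 not called, against 44.3% called over all genes tested, with a median log2 fold change of 0.03. The share called in this list is near that background and is not a result about the list. Ephx2, the soluble epoxide hydrolase that acts on fatty acid epoxides, was at 276, 322 and 255 CPM in knockout libraries, against 50.2, 65.7 and 63.2 CPM in wild-type libraries (log2 fold change 2.25 ± 0.13, edgeR adjusted p = 4.77e-07). Its microsomal counterpart Ephx1 did not pass, at 243 ± 5.35 CPM in knockout, against 268 ± 21.7 CPM in wild type. The glutathione transferase genes Gsta4, Mgst3 and Mgst1 rose by 2.77, 1.89 and 0.93 on the log2 scale.

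Of 9 tested genes listed as steroid handling, 5 were higher and 0 lower (median log2 fold change 0.93), against 44.3% called over all genes. Over so few genes, the share called is not read as a result about the list. Those higher included Hsd17b12 (1.70), Hsd17b4 (1.38), the oestrogen receptor gene Esr1 (1.62) and Srd5a1 (0.98). What the listed enzymes act on in these cells was not measured. Of 12 nuclear receptor genes that regulate P450 or lipid genes, 7 were higher and 3 lower (median 0.37). This compares with 22.6% higher and 21.7% lower over all genes tested, and neither list was tested as a set. Pparg and Ppara were at 131 ± 14.4 and 13.5 ± 4.15 CPM in knockout, against 29.8 ± 5.50 and 1.18 ± 0.377 CPM in wild type, and Nr2f2 fell by 1.04 on the log2 scale. Nr1i2 and Nr1i3, the foreign-compound receptors of liver, held at most 6 counts in any library.

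**Figure D4:**
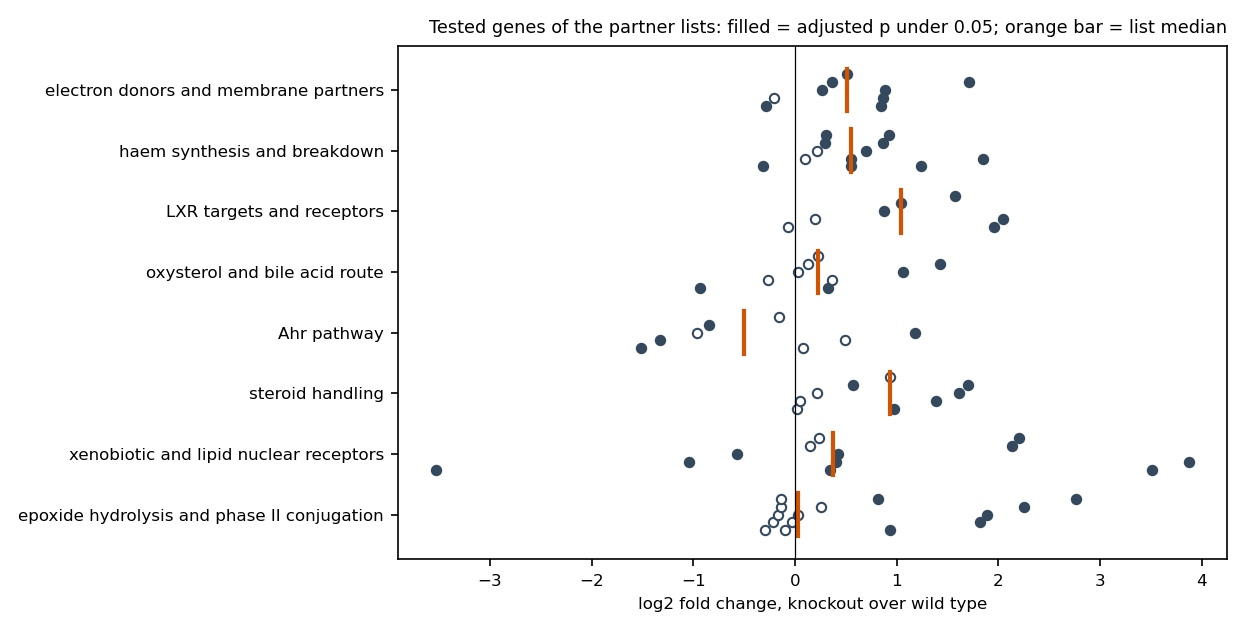
Log2 fold change, knockout over wild type, of the tested genes of 8 partner lists (horizontal axis; 1 point per gene, filled where it passed the adjusted threshold), with the median of each list as an orange bar. Medians lie between -0.50 for the Ahr list and 1.04 for the LXR list.

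Genes with the closest pattern to each member were found among 10553 protein-coding genes of at least 5 CPM, by the root mean square distance between log2 CPM profiles over the 6 libraries, each centred on its own mean. For Cyp1b1 these were Ccnd1, P4ha3 and Shisa4, at distances of 0.0676 to 0.0709. For Cyp2e1 they were Ppara, Elovl3 and Agpat2, at 0.252 to 0.313. The nearest to Cyp4b1 were Oas3, Ifi206 and Nos2 (0.127 to 0.154), and to Por they were Tmem69, Dhrs11 and Atg4d (0.0386 to 0.041). Cyp7b1 was closest to Tesk1, Cstf1 and D10Wsu102e (0.0272 to 0.0305), and Cyp27a1 to Tfrc, Sirt5 and Strbp (0.0636 to 0.0813). Cyp4v3 was closest to Npc1, Mfsd7a and Zfp280c (0.0298 to 0.0324), and Cyp2d22 to Xpa, Jmjd6 and Mrm1 (0.0256 to 0.0402). In these distances a small value means a similar size of change and a similar spread between replicates. They were not scaled to the size of the change or the spread, so distances of different members are not compared.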

How the data were processed

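Per the submitters' processing notes, the authors used STAR and featureCounts with the builds mm10 and GRCm38. The values are raw counts, 1 row per Ensembl gene, as deposited. The sources used here state neither tool versions, annotation and strand setting nor how reads with more than 1 match were counted. Libraries were sequenced as 150 bp pairs, per the labels' protocols.

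Columns were matched to samples by the labels. Symbols, positions and lengths came from GENCODE mouse release 21 (GRCm38), which held 53706 of 53801 identifiers. The low-count filter was filterByExpr with a minimum count of 10 and a minimum total of 15, libraries were scaled with TMM, and genotype was tested in edgeR 4.0.16 under R 4.3.3 with the robust legacy quasi-likelihood fit, 2-sided. The fit was tested on simulated data of 14816 genes, of which 200 were changed. It made 13 false calls and recovered 90% of the genes changed 4-fold. Smaller changes were simulated too, and their recovery is not reported here. So the 90% does not cover changes as small as those of Cyp7b1 or Cyp27a1. Far fewer genes were changed there than the 6561 called in the data, so the simulation does not check scaling or error at that share. Alternatives used DESeq2 1.42.0 and limma 3.58.1 among 16 settings. No protein sequences were used here.

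The members and lists were chosen with earlier results of these data known. Named beyond the members were up to 4 genes of each list with the smallest p among those past the threshold and at 1 CPM or more, and the 3 nearest profiles; some genes this rule names are not reported here. Other genes, among them Cyp20a1, Cyp4f13, Ptgis, Cyp26b1, Ahr, Cpox, Fech and Ephx1, were named after their values were seen. P-values do not cover a difference in culture or preparation that coincided with genotype.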

Additional observations from a re-analysis of the deposited data

How the results depend on the processing

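The 16 alternatives kept the direction and the call of Cyp1b1, Cyp2e1 and Por. Cyp4b1 kept its log2 fold change of 0.90 without the low-count filter but did not pass, and with 1 library left out it ran from 0.64 to 1.14, passing in 3 of 6 settings; that of Cyp7b1 ran from 0.26 to 0.37 and passed in 4 of 6. Cyp4v3, which never passed, turned to -0.027 with upper-quartile factors and spanned -0.019 to 0.12 over the leave-one-out settings. The share of Cyp1b1 in the summed P450 level per kb was 35.8% in knockout and 67.8% in wild type with coding length in place of exon length (order of the members and share of Cyp2e1 also moved, as given above), since 1629 of its 5840 exon bases are coding. With the replicate number as a block, 6129 genes were called against 6561 without it and no member changed its call. Deviations of same-numbered libraries from their genotype means correlated at -0.126, 0.0117 and -0.143. With 3 libraries per genotype, such correlations cannot show whether same-numbered cultures were prepared together. With 1 library left out, 5276 to 6674 genes were called over all and 50 to 59 against 57 over the partner lists and the other P450 genes together. Cyp27a1, at 40 to 71 counts per library, did not pass without knockout replicate 3 either (0.57, edgeR adjusted p = 0.083), and the parts of depth and of spread between replicates were not separated.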
